A study of Saccharomyces cerevisiae with 24 samples.

Results

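The RNA examined here came from yeast that carried the *S. cerevisiae* allele of *FZF1*, sampled at 0 min, just before sodium sulfite was added to 1 mM, and at 15 min after it. *FZF1* encodes a zinc finger transcription factor that activates the sulfite pump gene *SSU1*. The members are the 6 arrays titled with this allele, 3 at each time, of 24 arrays in the series. Of the 4073 named genes, 4071 were tested. The strain is an S288c derivative of mating type a with *ura3-52*, in which the native *FZF1* was deleted and the allele was integrated at the *ura3* locus with a plasmid that carries *URA3*. The other 3 alleles in the same background, used only for comparison, were that of *S. paradoxus*, the C.P. chimera (noncoding region upstream of the gene from *S. cerevisiae*, coding region from *S. paradoxus*) and the reciprocal P.C. chimera. All cultures grew for 3 h at 30 °C in rich medium with 75 mM tartaric acid at pH 3.5, and each was sampled at both times. No array of a culture left without sulfite for 15 min is in the series, so the effect of sulfite and that of 15 min of further growth cannot be told apart. Every value is a log2 ratio of the sample over a pool of all RNA samples, so levels of different genes were not compared. A difference of 1 is 2-fold, and the response is the value at 15 min minus that at 0 min.

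Sulfite enters yeast at low pH as dissolved sulfur dioxide, and yeast exports it with Ssu1, an efflux pump of the plasma membrane. Inside the cell sulfite is also an intermediate of sulfate assimilation, where it is reduced to sulfide and built into homocysteine, methionine and cysteine. It binds acetaldehyde and other carbonyl compounds, breaks disulfide bonds and reacts with thiamine. Many stresses of yeast share a common program in which genes for ribosome assembly go down and genes for trehalose, glycogen, antioxidant enzymes and chaperones go up.

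The gene that marks the allele did not read alike on all 6 arrays. *FZF1* read 0.18, −3.63 and −0.11 at 0 min and 1.01, 0.74 and 0.95 at 15 min, for replicates 1, 2 and 3 in turn. The array labelled *S. cerevisiae*, 0 min, replicate 2 lies among the 12 arrays whose *FZF1* coding region is that of *S. paradoxus* (−5.57 to −2.47), read with probes designed for *S. cerevisiae*, and below the 6 arrays of the P.C. chimera (0.00090 to 2.21). *URA3*, the marker of the integrated plasmid, also set this array apart, with −1.97, 1.20 and −1.89 at 0 min and −0.46, −0.55 and −0.19 at 15 min. On the 9 arrays of the other alleles at 0 min *URA3* ranged from −1.93 to 1.34, and 1 of them was above 1. By the number of genes more than 1 from the mean of the other arrays of its group, the same array was not apart. It had 28 of 4071 such genes, against 26 and 56 for replicates 1 and 3. Its median absolute deviation was 0.18, against 0.13 and 0.20 for those replicates. Such measures over all genes do not show which allele an array carries. Results are therefore given with all 6 arrays and, where a value rests on it, without this array. Each gene named as rising or falling passed the test both ways unless the sentence says otherwise. Counts over gene groups are those with all 6 arrays, and without this array no group's count of rises or of falls moved by more than 3. Counts without it are given beside several groups. Where a fit that takes same-numbered arrays of an allele as 1 culture (the culture block) called a gene said not to pass, its adjusted p in that fit is given.

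**Figure D1:**
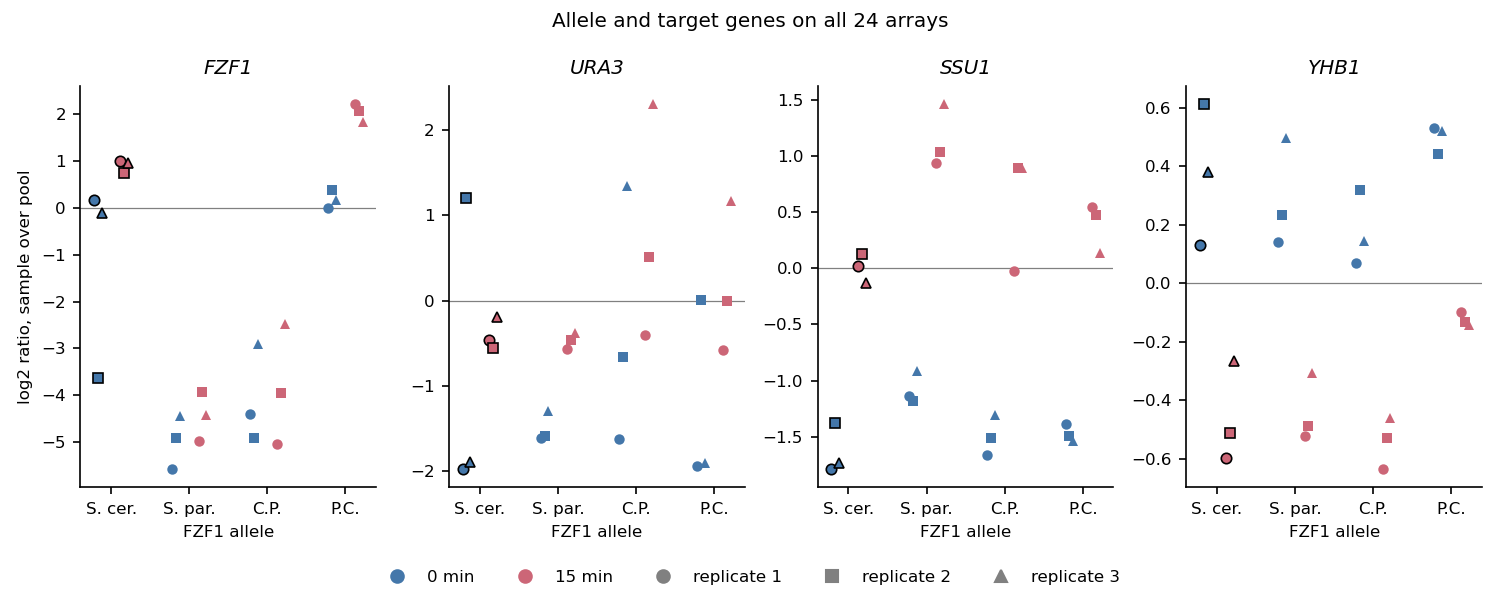
Log2 ratio of sample over pool (y axis) of *FZF1*, *URA3*, *SSU1* and *YHB1* on all 24 arrays, by *FZF1* allele (x axis) and time (colour), with the replicate number as the symbol and the *S. cerevisiae* allele outlined in black. *FZF1* of the array labelled *S. cerevisiae*, 0 min, replicate 2 sits at −3.63 while the other 5 arrays of the allele lie between −0.11 and 1.01, and *SSU1* was higher at 15 min on all 3 arrays of the allele.

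A linear model across all genes (limma, Benjamini-Hochberg adjusted p under 0.05, two-sided) called 2375 of 4071 genes (58.3%) after sulfite. Of these 1180 rose (29.0% of genes) and 1195 fell (29.4%), and without the array labelled 0 min, replicate 2 the counts were 1119 (27.5%) and 1129 (27.7%), 55.2% of genes in all. At least 2-fold changes numbered 439 up (10.8%) and 423 down (10.4%), 448 (11.0%) and 455 (11.2%) without that array, and at least 4-fold changes 140 up (3.44%) and 135 down (3.32%). The call and direction were shared with and without that array by 2182 genes (53.6%), 193 lost the call and 66 gained one. The 3 arrays at 15 min lay wholly above those at 0 min for 1315 genes (32.3%) and wholly below for 1329 (32.6%), 64.9% of genes in all. The median response over all genes was 0.0024, with quartiles of −0.49 and 0.49 and a median SE of 0.16. These are the shares to set beside the counts of each gene group. Since every array was set to the same median, a change of all RNA per cell cannot be seen, and fewer cells with a transcript cannot be told apart from less of it per cell.

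The sulfite pump gene *SSU1* rose 3.12-fold. It read −1.79, −1.38 and −1.73 at 0 min and 0.023, 0.13 and −0.13 at 15 min, the 2 sets of arrays being well apart, and its response was 1.64 ± 0.20 (SE, adjusted p = 4.9e-07). Without the array labelled 0 min, replicate 2 the response was 1.77. *YHB1*, the flavohemoglobin that detoxifies nitric oxide and another gene activated by Fzf1, fell by 0.83 on the log2 scale. It read 0.13, 0.61 and 0.38 at 0 min and −0.60, −0.51 and −0.27 at 15 min, lower on every array at 15 min, with an SE of 0.12 and an adjusted p of 6.4e-06. For *FZF1* itself the response of 2.09 (adjusted p = 0.019) rested on the low array and was 0.87 (adjusted p = 0.20) without it. The remaining arrays still lay apart, with 0.18 and −0.11 at 0 min and 1.01, 0.74 and 0.95 at 15 min. *URA3* did not pass either way, at 0.48 (adjusted p = 0.63) and 1.53 (adjusted p = 0.091). Without that array it read −1.97 and −1.89 at 0 min and −0.46, −0.55 and −0.19 at 15 min. For both genes the test pools the spread of all 8 groups, so its p does not measure the spread of this allele's arrays alone. With the C.P. chimera at 0 min, *URA3* ran from −1.62 to 1.34 and *FZF1* from −4.92 to −2.90. The fragments of *ZRT1* and *HXK2* that the construct carries at its ends belong to genes with responses of −0.85 ± 0.24 (SE, adjusted p = 0.0042) and −0.27 ± 0.13 (SE, adjusted p = 0.067). Without the array labelled 0 min, replicate 2 that of *HXK2* was −0.38 (adjusted p = 0.021), and with the culture block its adjusted p was 0.022.

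The largest increase was that of *ADH5*, an alcohol dehydrogenase isozyme, at 41.1-fold. It read −4.54, −4.45 and −4.22 at 0 min and 0.83, 0.77 and 1.26 at 15 min, and its response was 5.36 ± 0.21 (SE, adjusted p = 6.2e-14). *TMT1*, a methyltransferase that acts on trans-aconitate, read −3.91, −3.96 and −3.92 at 0 min and 1.14, 1.03 and 1.02 at 15 min, a 31.8-fold increase. *ALD3*, a cytosolic aldehyde dehydrogenase, read −4.22, −4.47 and −3.85 at 0 min and 0.50, 0.41 and 0.96 at 15 min and rose 28.0-fold. These 3 genes were below the pool on all arrays at 0 min and above it on all arrays at 15 min. *NCE103*, the carbonic anhydrase, read −3.19, −3.49 and −3.70 at 0 min and 1.15, 1.34 and 1.15 at 15 min and rose 25.5-fold. *CTT1*, the cytosolic catalase, read −3.73, −3.76 and −3.65 at 0 min and 0.73, 0.67 and 1.15 at 15 min and rose 23.6-fold. The remaining genes of the 15 largest increases belong to a few known roles. They are the autophagy gene *ATG41* at 4.63, the minor phosphogluconate dehydrogenase *GND2* at 4.43, the transketolase *TKL2* at 4.03, the lactonase *SOL4* at 3.67, the dihydroxyacetone kinase *DAK2* at 4.30, the aldo-keto reductase *GCY1* at 4.23, the arginine genes *ARG1* at 4.25 and *ARG4* at 4.12, *BAG7* at 4.07 and the membrane heat shock protein *HSP30* at 3.74. Passing the test was part of the rule for these genes, and all 15 had adjusted p at or below 3.1e-08.

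The 15 largest decreases were for the most part genes of ribosome assembly. *DHR2*, an RNA helicase of the small subunit processome, had the largest, with 1.10, 0.87 and 1.05 at 0 min and −3.44, −3.06 and −3.20 at 15 min and a response of −4.24 ± 0.31 (SE, adjusted p = 2.2e-10). *AAH1*, the adenine deaminase, read 0.99, 0.66 and 1.13 at 0 min and −3.17, −3.15 and −2.80 at 15 min and fell by 3.97 on the log2 scale. *HPT1*, which salvages hypoxanthine and guanine, read 0.99, 1.08 and 0.98 at 0 min and −2.40, −2.28 and −2.75 at 15 min and fell by 3.49. Both purine salvage enzymes were above the pool on every array at 0 min and below it on every array at 15 min. *PRM7*, a gene known for its regulation by pheromone, responded by −3.51, and *GFD2* by −3.62. The other 10 are nucleolar or ribosome assembly genes, the nucleolin homolog *NSR1* at −3.33, the GTPases *NOG1* at −3.30 and *NOG2* at −3.25, the helicases *DBP2* at −3.29 and *DBP7* at −3.19, and *MRD1* at −3.29, *ARX1* at −3.28, *SSF1* at −3.28, *PUF6* at −3.20 and *PWP2* at −3.19.

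**Figure D2:**
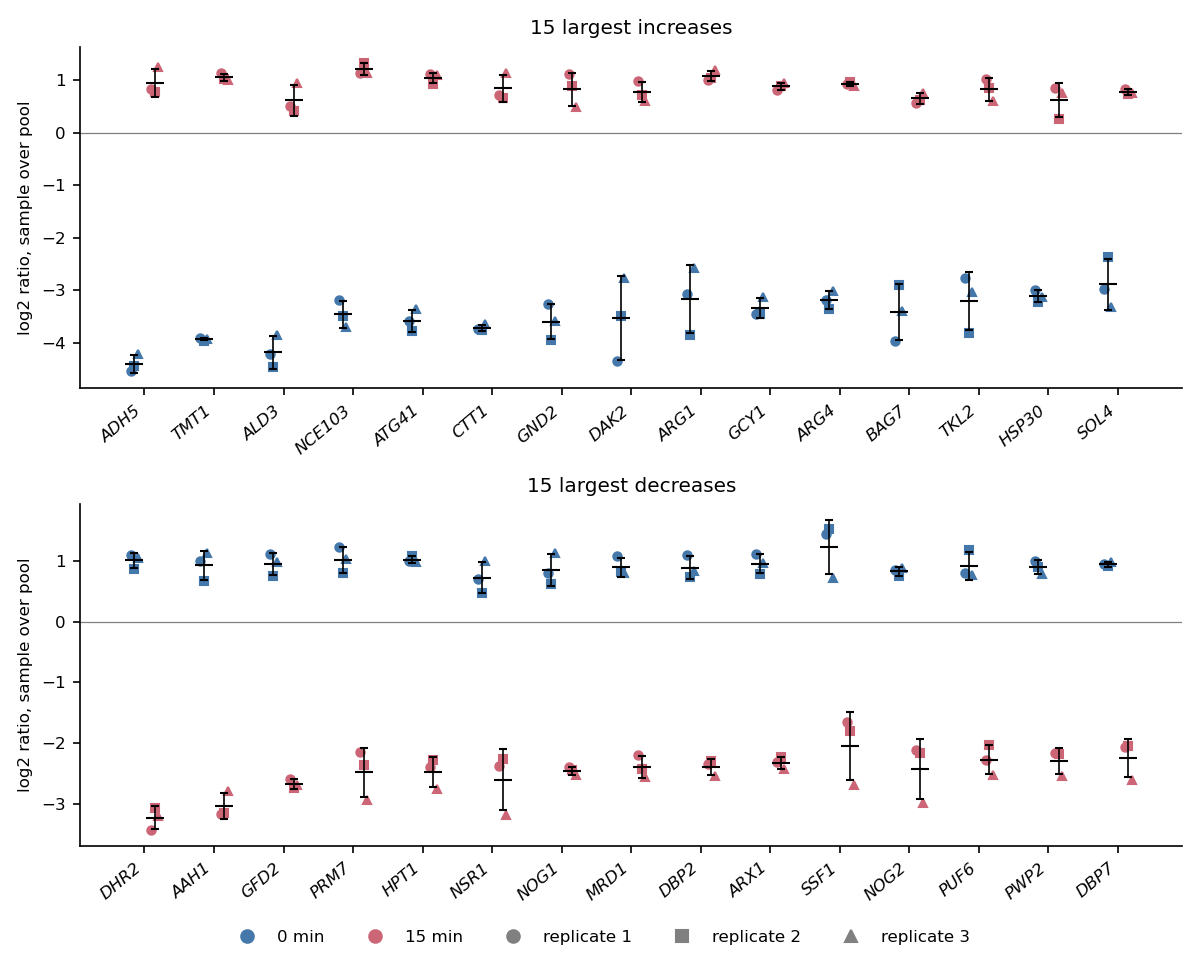
Log2 ratio of sample over pool (y axis) of the genes with the 15 largest increases (top) and the 15 largest decreases (bottom) on the 3 arrays at 0 min (blue) and the 3 arrays at 15 min (red), with the mean and SD in black and the replicate number as the symbol. By the rule that chose them, the arrays of the 2 times overlap in none of the 30 genes, and *ADH5* and *DHR2* have the largest responses, 5.36 and −4.24.

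Responses differed along the sulfur pathway. In the part that takes up sulfate and reduces it, 6 of 10 genes rose and 2 fell, with a median response of 0.60. *MET22*, the phosphatase that removes the by-product of PAPS reduction, rose by 1.89, the PAPS reductase *MET16* by 1.09, *MET1*, needed for the siroheme of sulfite reductase, by 1.09, the sulfate permease *SUL2* by 0.96 and the sulfite reductase subunit *MET10* by 0.88. Its partner subunit *MET5* was at 0.31 and the permease *SUL1* at 0.15, neither past the test, and *MET3*, the ATP sulfurylase, rose by 0.33 with all arrays but did not pass without 0 min replicate 1 (0.35) or 2 (0.25) or 15 min replicate 1 (0.32) or 3 (0.32). *MET14* (APS kinase) and *MET8*, the latter also of siroheme synthesis, fell by 0.41 and 0.42, and *MET8* did not pass without 0 min, replicate 3 (−0.29) or 15 min, replicate 2 (−0.35). *MET17*, which joins sulfide to the carbon skeleton of homocysteine, read −0.23, −0.20 and 0.030 at 0 min and −0.0084, −0.12 and 0.11 at 15 min. Its arrays at the 2 times overlap, and its response of 0.13 did not pass (adjusted p = 0.49).

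Genes of methionine and cysteine metabolism moved both ways, 5 of 17 up and 7 down. *STR3*, which makes homocysteine from cystathionine, read −2.04, −1.97 and −1.53 at 0 min and 0.99, 1.02 and 1.24 at 15 min, a response of 2.94 ± 0.23 (SE, adjusted p = 6.3e-10). *STR2*, the enzyme before it, responded by 2.66, so that both steps from cysteine to homocysteine rose. The 2 genes of the opposite path, from homocysteine to cysteine, fell, *CYS4* at −0.93 and *CYS3* at −0.86, the latter not past the test without 0 min, replicate 3 (−0.64) or 15 min, replicate 2 (−0.70). *MET13*, a methylenetetrahydrofolate reductase, rose by 2.63, and the first 2 enzymes from aspartate to homoserine rose, *HOM3* at 2.27 and *HOM2* at 1.17. *MET6*, the methionine synthase, fell by 0.70, and the *S*-adenosylmethionine synthetase *SAM1* by 1.38. Of 6 regulators of the pathway, the cofactor *MET28* rose, with −1.79, −1.58 and −1.53 at 0 min and 0.65, 0.73 and 0.77 at 15 min and a response of 2.35, 1 fell, and the activator *MET4* did not pass at 0.37 (adjusted p = 0.072, and 0.031 with the culture block). Among 8 transport and *S*-methylmethionine genes *MUP3*, a methionine permease, rose by 0.83, and *MMP1* at −1.41 and *MHT1* at −1.24 fell.

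Acetaldehyde, the intermediate between pyruvate and ethanol, binds sulfite. Of 19 genes around it 10 rose and 0 fell (10 and 1 without the array labelled 0 min, replicate 2), with a median of 0.70. Besides *ADH5* and *ALD3* these were the butanediol dehydrogenase *BDH1* at 2.08, the minor pyruvate decarboxylase *PDC6* at 1.84, the aldehyde dehydrogenases *ALD6* at 1.79, *ALD5* at 1.65, *ALD2* at 1.24 and *ALD4* at 1.21, and, in the handling of acetate and its CoA ester, *ACH1* at 1.65 and *ACS1* at 0.70. The main fermentative genes did not pass the test, with *PDC1* at 0.38 and *ADH1* at 0.63, nor did *ADH2* at 0.19 and *SFA1* at −0.24. With the culture block *ADH1* did pass (adjusted p = 0.026, against 0.15).

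Some pairs of related genes for 1 step had unequal responses. In 17 pairs, chosen for their unequal responses after the values were seen and so given with no test, the response of one minus that of its partner was above 0 in each of the 3 cultures, with means from 1.38 to 4.73. Culture 2 takes its 0 min value from the array labelled 0 min, replicate 2, and the means and SDs include it. *GLK1* minus *HXK2* (glucose phosphorylation) was 3.34 ± 0.62 (SD, n = 3 cultures), *GPM2* minus *GPM1* (phosphoglycerate mutase) 3.30 ± 0.42, *TDH1* minus *TDH3* (glyceraldehyde phosphate dehydrogenase) 2.98 ± 0.35 and *PYK2* minus *CDC19* (pyruvate kinase) 2.57 ± 0.14. In each of these pairs the second gene is the one known to be abundant in cells grown on glucose, and it did not pass the test with all 6 arrays, *HXK2* doing so without the array labelled 0 min, replicate 2 and with the culture block, as given above. Across the 22 glycolytic genes 8 rose and 1 fell (8 and 2 without the array labelled 0 min, replicate 2), the risen ones being *GPM2* at 3.65, *TDH1* at 3.54, *GLK1* at 3.07, *PYK2* at 2.73, *EMI2* at 2.59, *HXK1* at 2.03, *ENO1* at 1.81 and *PFK26* at 0.85. *TDH2* and *TDH3* are close copies and their probes may not separate them. Outside glycolysis, *ADH5* minus *ADH1* was 4.73 ± 0.32, *TKL2* minus *TKL1* 3.20 ± 0.53, the peroxiredoxins *TSA2* minus *TSA1* 2.91 ± 0.40, the cytochromes *c* *CYC7* minus *CYC1* 2.97 ± 0.44, the external NADH dehydrogenases *NDE2* minus *NDE1* 2.43 ± 0.13 and the CTP synthases *URA8* minus *URA7* 4.14 ± 0.23. Other pairs are not in this set, such as the glycogen synthases *GSY2* at 2.79 and *GSY1* at 2.59, which both rose.

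**Figure D3:**
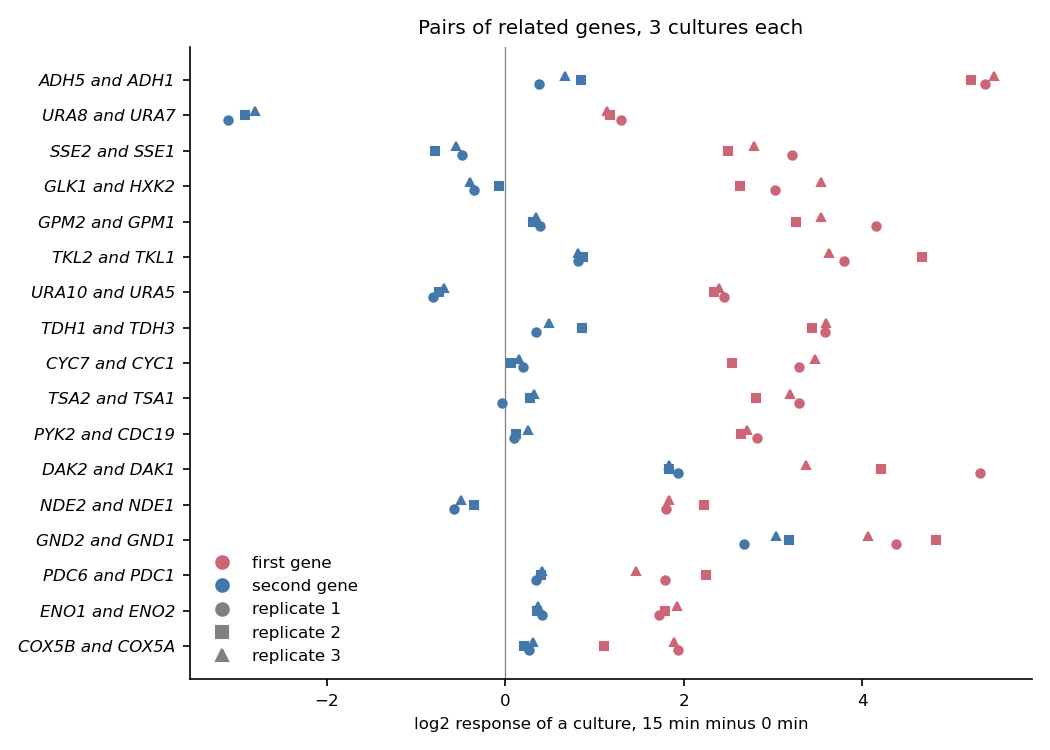
Log2 response, 15 min minus 0 min, in each of 3 cultures (x axis, symbol by replicate number) for 17 pairs of related genes (y axis), the first gene in red and the second in blue. In every pair the first gene lies above the second in each culture, by 1.38 on average for *COX5B* and *COX5A* and by 4.73 for *ADH5* and *ADH1*.

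In the pentose phosphate pathway, the main cytosolic source of NADPH, 11 of 14 genes rose and 1 fell, with a median of 1.59. *GND2* read −3.27, −3.94 and −3.58 at 0 min and 1.12, 0.89 and 0.49 at 15 min and the major isozyme *GND1* −2.33, −2.78 and −1.78 at 0 min and 0.35, 0.41 and 1.25 at 15 min. Both were higher on every array at 15 min, with responses of 4.43 and 2.96. The entry enzyme *ZWF1*, glucose phosphate dehydrogenase, rose by 1.39 and the lactonases by 3.67 for *SOL4* and 2.65 for *SOL3*. Their paralog *SOL1* rose by 2.16. In the nonoxidative branch transketolase *TKL2* (4.03) and transaldolase *TAL1* (1.31) rose, whereas *RKI1*, ribose phosphate isomerase, read 0.75, 0.71 and 0.86 at 0 min and −1.71, −1.54 and −1.59 at 15 min and fell by 2.39 on the log2 scale.

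Of 16 NADPH dependent and related reductases 13 rose and 0 fell, with a median of 1.05. The aldo-keto reductase *GCY1* read −3.45, −3.45 and −3.12 at 0 min and 0.82, 0.90 and 0.95 at 15 min, and next were *AAD10* at 2.39, *GRE3* at 2.15, *ZTA1* at 1.90, *ARA1* at 1.44 and *AAD4* at 1.34. The old yellow enzymes differed, *OYE3* at 1.27 (adjusted p = 7.9e-08) and *OYE2* at −0.092 (adjusted p = 0.40). Glutathione genes rose in 11 of 17 cases and fell in 0. The risen ones included the peroxidase *GPX1* at 1.99, the γ-glutamyltransferase *ECM38* at 1.97, the glyoxalase *GLO1* at 1.68 and the glutaredoxins *GRX2* at 1.45 and *GRX1* at 1.31. The 2 enzymes that make glutathione did not pass, *GSH1* at 0.078 and *GSH2* at 0.060. Of 9 thioredoxin and peroxiredoxin genes 5 rose, led by *TSA2*, which read −2.36, −1.99 and −2.56 at 0 min and 0.93, 0.82 and 0.64 at 15 min. *TSA1*, *TRX1* and *TRR1*, the abundant peroxiredoxin, thioredoxin and its reductase, did not pass (0.19, −0.21 and −0.31). Among catalases and superoxide dismutases *CTT1* at 4.56 and mitochondrial *SOD2* at 1.18 rose, and the peroxisomal catalase *CTA1* was at −0.20 and cytosolic *SOD1* at 0.53, neither past the test. With the culture block *TRR1* (adjusted p = 0.014) and *SOD1* (adjusted p = 0.013) passed.

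Genes for storage carbohydrates rose nearly throughout. For trehalose, a disaccharide that protects proteins and membranes, all 7 of 7 genes rose, with a median of 1.89. The synthase complex gave *TPS2* at 3.14, *TSL1* at 3.00, *TPS1* at 2.41 and *TPS3* at 1.58 and the trehalases *NTH1* at 1.89, *ATH1* at 1.72 and *NTH2* at 1.46, so both synthesis and breakdown genes were higher. *TPS1* read −1.88, −1.50 and −1.92 at 0 min and 0.63, 0.54 and 0.74 at 15 min. For glycogen 11 of 13 rose and 1 fell, with a median of 1.97. Among the risen were *PGM2*, the phosphoglucomutase, at 3.60, the branching enzyme *GLC3* at 3.00, the phosphorylase *GPH1* at 2.97, the initiator *GLG1* at 2.81 and the synthases *GSY2* at 2.79 and *GSY1* at 2.59. Glycerol genes rose in 9 of 13 cases. The glycerol phosphate dehydrogenase *GPD1* read −1.69, −1.46 and −1.62 at 0 min and 0.72, 0.58 and 0.86 at 15 min, and *GPD2* at 1.53, *GPP2* at 1.79 and *DAK1* at 1.87 rose as well, while *GUP2* fell by 0.68.

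The general stress list, 28 measured genes known to rise in many stresses, rose in all 28 cases, 27 without the array labelled 0 min, replicate 2, with a median of 2.76. The list was written with earlier results of these data known, and it shares genes such as *ALD3* and *CTT1* with lists above. Beyond genes named above, *DDR2* at 3.55, *PHM7* at 3.51, *GAD1* at 3.40 and *MSC1* at 3.35 led it. Also in it are *HSP12*, a membrane protein of stressed cells, which read −2.18, −1.97 and −2.16 at 0 min and 0.62, 0.56 and 1.08 at 15 min, and *PNC1*, nicotinamidase, which rose by 2.25. Glutamate decarboxylase *GAD1* and the next 2 enzymes of that route, *UGA1* at 2.80 and *UGA2* at 2.66, rose together.

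Chaperone genes moved both ways, also within a family. Of 30 measured, 13 rose and 6 fell, and the median was 0.30, against 0.0024 for all genes. *HSP30*, which restrains the plasma membrane proton pump, read −2.99, −3.22 and −3.14 at 0 min and 0.85, 0.26 and 0.77 at 15 min, a 13.4-fold rise. The small heat shock proteins *HSP42* at 3.18 and *HSP26* at 2.70, the disaggregases *HSP78* at 3.05 and *HSP104* at 2.38, and the stress forms of Hsp70 and its exchange factor, *SSA4* at 3.16 and *SSE2* at 2.84, also rose. The ribosome-associated Hsp70 genes fell, *SSB1* at −1.11 and *SSB2* at −1.07, as did *YDJ1* at −0.97, *SSA2* at −0.83 and *SSE1* at −0.61. *SSB1* and *SSB2*, like *SSA1* and *SSA2*, are close copies whose probes may not separate them. *HSP82* rose by 1.05, while its constitutive copy *HSC82* did not pass at 0.16. In the endoplasmic reticulum list 8 of 22 genes rose and 3 fell, with *MPD1*, a disulfide isomerase, at 1.84 and the oxidase *ERO1* at 0.64 (adjusted p = 0.12, and 0.035 with the culture block). Its share of genes called was 50%, against 58.3% of all genes.

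Protein breakdown genes also split. Of 37 proteasome and ubiquitin genes 8 rose and 1 fell, against 58.3% of all genes called, with a median of 0.16. Rises numbered 5 without the array labelled 0 min, replicate 2. The polyubiquitin gene *UBI4*, read −1.93, −1.63 and −1.72 at 0 min and 0.45, 0.43 and 0.86 at 15 min, was far above the rest at 2.34. Of 23 autophagy genes 19 rose and 1 fell, with a median of 1.05. *ATG41* read −3.60, −3.79 and −3.36 at 0 min and 1.12, 0.94 and 1.10 at 15 min, and *ATG8*, whose product coats the autophagosome, −1.60, −0.64 and −1.46 at 0 min and 0.64, 0.64 and 0.89 at 15 min. The conjugation enzymes *ATG7* at 1.81 and *ATG3* at 1.34, the receptor *ATG19* at 1.78 and the kinase *ATG1* at 1.08 rose, and *ATG5* fell by 0.81.

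In the citric acid cycle 13 of 16 rose, with a median of 0.68 and the largest for *LSC2* at 2.04, *CIT1* at 1.97, *SDH2* at 1.48 and *MDH1* at 1.44. In the respiratory chain 17 of 23 rose and 0 fell, with a median of 0.71. *CYC7*, the cytochrome *c* isoform of low oxygen and stress, read −2.25, −1.50 and −2.69 at 0 min and 1.05, 1.04 and 0.78 at 15 min, and *CYC1* 0.19, 0.29 and −0.12 at 0 min and 0.39, 0.35 and 0.026 at 15 min. The former was higher on every array at 15 min and the latter overlapped. For the ATP synthase 10 of 17 genes rose, and its regulators led with *STF2* at 2.36, *STF1* at 1.35 and *INH1* at 0.81. In the glyoxylate and gluconeogenesis list 8 of 13 rose (6 without that array), with *SIP4* at 2.20, *MDH2* at 2.04, *SFC1* at 1.47 and *CIT2* at 1.31, whereas the key enzymes *PCK1*, *MLS1* and *FBP1* did not pass (0.67, 0.65 and 0.42), though *PCK1* (adjusted p = 0.016) and *MLS1* (adjusted p = 0.0069) did with the culture block. Peroxisome and fatty acid oxidation genes rose in 24 of 33 cases and fell in 2. Among them the transporter *PXA2* at 2.07, the oxidation enzymes *POX1* at 1.75, *FOX2* at 1.42 and *POT1* at 1.23 and the receptor *PEX5* at 1.14 rose, and *PEX11*, which sets peroxisome size and number, fell by 0.45, not past the test without 0 min, replicate 3 (−0.36).

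Arginine genes had the highest median of the 4 amino acid lists outside sulfur, 2.06, against 0.77, 0.11 and −0.036 for the lysine and histidine, branched chain, and aromatic and serine lists. Of 10 arginine genes 8 rose and 0 fell. *ARG1* read −3.07, −3.85 and −2.57 at 0 min and 1.01, 1.04 and 1.19 at 15 min, and *ARG4*, the last enzyme, −3.18, −3.36 and −3.01 at 0 min and 0.94, 0.98 and 0.89 at 15 min. Every array at 15 min was above every array at 0 min, by means of 4.25 and 4.12. The carrier *ORT1* at 2.68, and *ARG7* at 2.56, *ARG3* at 2.50, *CPA1* at 1.62 and *ARG2* at 1.26, also rose. Of the breakdown enzymes *CAR2* rose by 1.14. Lysine and histidine genes rose in 12 of 16 cases and fell in 2, the largest being *HIS4* at 2.83, *HIS3* at 2.18, *LYS1* at 2.10 and *LYS20* at 1.80. For the branched chains 3 of 11 rose, *LEU2* by 2.69 and *LEU4* by 1.57, and the *ILV* genes measured did not pass. The aromatic and serine list had 9 up and 6 down of 26, with *ARO3* at 1.65 and *TRP3* at 1.61 highest and *SHM2* at −1.09 and *ARO7* at −0.98 lowest. The activator of these pathways, *GCN4*, is known to be regulated at translation. Its mRNA read −0.30, −0.29 and 0.070 at 0 min and −0.31, −0.21 and 0.10 at 15 min (response 0.029, adjusted p = 0.91). *PCL5*, the cyclin that marks Gcn4 protein for degradation, rose 9.47-fold, with −2.28, −2.38 and −2.31 at 0 min and 0.97, 0.98 and 0.80 at 15 min.

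Genes of ribosome synthesis fell together. In the small subunit list 56 of 58 genes fell and 0 rose, with a median of −2.37, and in the large subunit list 58 of 58 fell, with a median of −2.42. Against these, 29.4% of all genes fell and the median over all genes was 0.0024. *NSR1* read 0.70, 0.48 and 1.00 at 0 min and −2.37, −2.26 and −3.18 at 15 min, and *NOG1*, a GTPase of the large subunit path, 0.79, 0.62 and 1.13 at 0 min and −2.40, −2.44 and −2.53 at 15 min. Neither gene's arrays overlapped between the times. In the large subunit list the smallest response was that of *REA1* at −0.64, and in the small subunit list *RIO1* (−0.35) and *RRP7* (−0.45) did not pass with all 6 arrays, *RIO1* doing so with the culture block (adjusted p = 0.012). Of 36 genes of RNA polymerases I and III, which make ribosomal and transfer RNA, 26 fell and 4 rose, with a median of −1.53. The polymerase I subunits *RPA34* at −2.70, *RPA43* at −2.24 and *RPA12* at −2.15 and its initiation factor *RRN3* at −2.63 fell most. *MAF1*, the repressor of polymerase III, rose by 0.85, as did the TFIIIC subunit *TFC3* by 1.02.

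Of 19 cytosolic ribosomal protein genes that have no duplicate in the genome, 10 fell and 0 rose, with a median of −0.64 and *RPL39* lowest at −1.07. Falls numbered 12 without the array labelled 0 min, replicate 2 and 15 with the culture block. For *RPL3*, which read 0.0056, −0.20 and 0.57 at 0 min and −0.43, −0.53 and −0.011 at 15 min, the response of −0.45 did not pass (adjusted p = 0.14, and 0.0077 with the culture block). In the list of translation factors and related genes 33 of 39 fell. Lowest were the tRNA methyltransferase genes *GCD10* at −1.91 and *GCD14* at −1.87, then *NIP1* at −1.76 and *TIF4631* at −1.66. *HEF3*, the minor form of elongation factor 3, rose by 1.11, while the main form *YEF3* fell by 1.23. Of 17 tRNA synthetase genes 13 fell and 0 rose, with a median of −0.49. Most genes of the mitochondrial ribosome did not pass the test. Of 57, 2 rose and 3 fell, 4 and 0 without the array labelled 0 min, replicate 2 and 4 and 4 with the culture block, and the median was 0.0067.

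**Figure D4:**
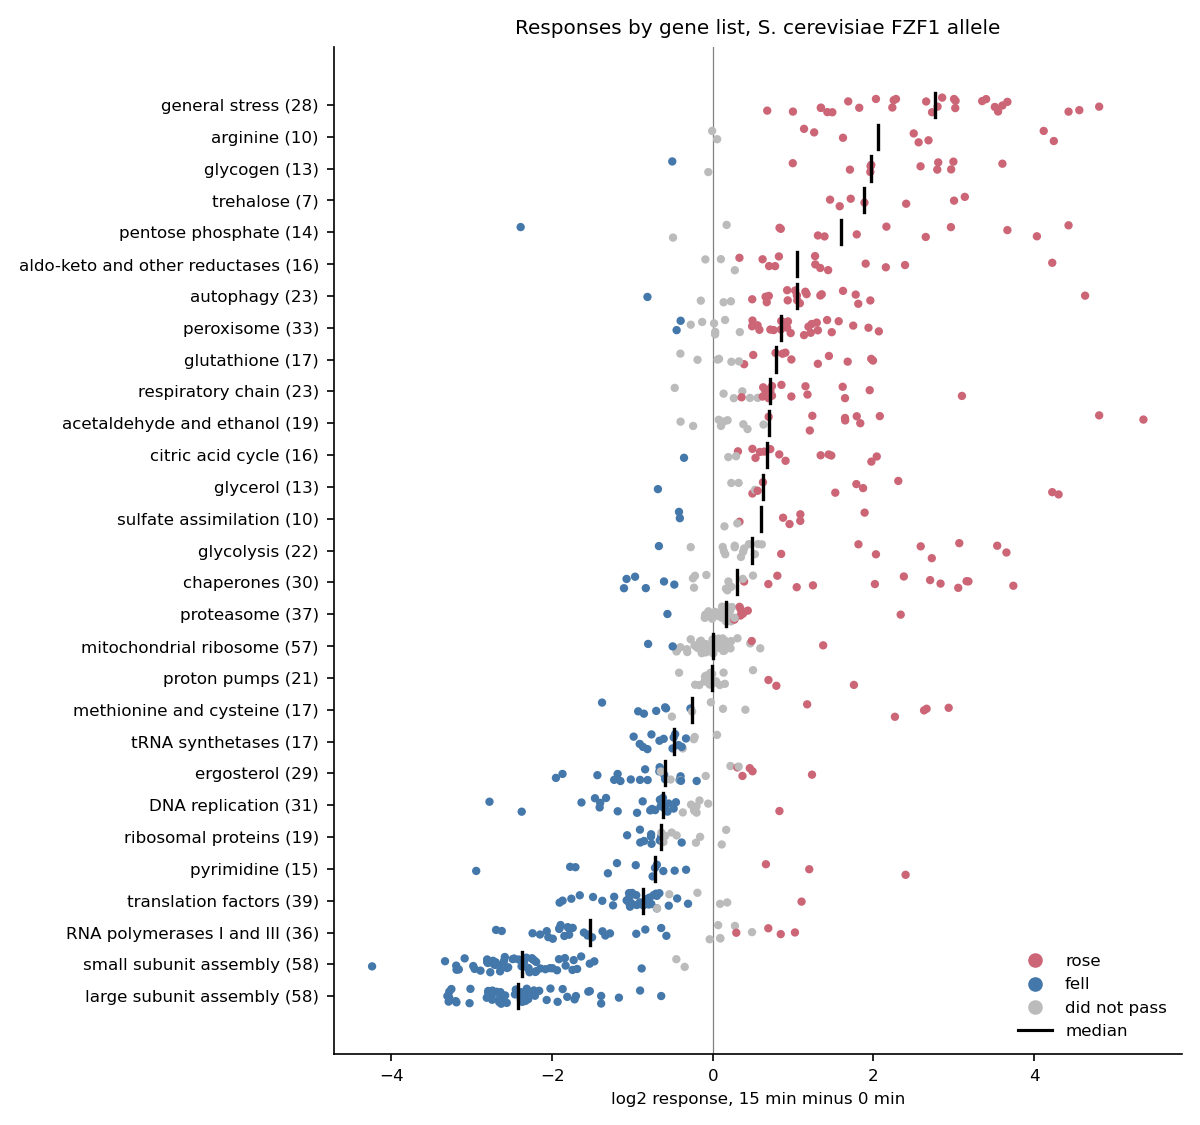
Log2 response, 15 min minus 0 min (x axis), of the measured members of 29 gene lists (y axis, number of members in parentheses), ordered by the median (black line) and coloured by whether the gene rose, fell or did not pass the test. The 2 ribosome assembly lists have medians of −2.37 and −2.42 and the general stress list one of 2.76, while the proteasome, the mitochondrial ribosome and the proton pumps lie near 0.

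Nucleotide synthesis genes fell more often than they rose. For purines 15 of 21 fell and 3 rose, with the salvage genes *AAH1* and *HPT1* far below the rest (−3.97 and −3.49) and then the GMP branch, *IMD4* at −1.90 and *GUA1* at −1.33. *IMD2*, an IMP dehydrogenase gene like *IMD4*, rose by 0.96. For pyrimidines 12 of 15 fell and 3 rose. *URA7* read 1.00, 0.79 and 0.84 at 0 min and −2.11, −2.12 and −1.97 at 15 min, falling by 2.94 on the log2 scale, and *URA8*, which encodes the other CTP synthase, read −0.89, −1.01 and −0.80 at 0 min and 0.40, 0.16 and 0.34 at 15 min and rose by 1.20. The orotate phosphoribosyltransferases parted in the same manner, *URA10* at 2.40 and *URA5* at −0.75.

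In DNA replication and repair 22 of 31 genes fell and 1 rose. *RNR1*, the large subunit of ribonucleotide reductase, read 1.00, 0.46 and 0.95 at 0 min and −1.92, −2.06 and −1.95 at 15 min, a response of −2.78 ± 0.20 (SE, adjusted p = 2.8e-10). The sliding clamp *POL30* at −2.38, the initiation factor *CDC45* at −1.63 and the polymerase α subunits *POL1* at −1.47 and *POL12* at −1.41 fell. *RNR3*, the damage-induced large subunit, rose by 0.83, and *HUG1*, another gene of that response, did not pass at −0.20. Of 34 cyclins and cell cycle regulators 17 fell and 7 rose. The S phase cyclins *CLB6* at −1.73 and *CLB5* at −1.27, the G1 cyclins *CLN2* at −1.41 and *PCL1* at −1.18, the mitotic cyclin *CLB2* at −1.24 and *FAR1* at −1.63 fell. Apart from *PCL5*, the Pho85 cyclins of storage metabolism *PCL8* at 1.46, *PCL7* at 1.05 and *PCL10* at 0.80 and the inhibitor *SIC1* at 0.57 rose. Histone genes had 3 falls and 1 rise among 10, the rise being *HHT2* at 0.71.

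Ergosterol genes fell more often than they rose, and the fatty acid and phospholipid list was mixed. Of 29 ergosterol genes 18 fell and 5 rose, with a median of −0.59. *ERG3*, the sterol desaturase, read 0.91, 0.43 and 0.76 at 0 min and −1.14, −1.27 and −1.35 at 15 min and fell by 1.95 on the log2 scale. The electron donor *CYB5* at −1.87 and the sterol enzymes *ERG25* at −1.44, *ERG11* at −1.23, *ERG5* at −1.18 and *ERG1* at −1.15 fell next. *ERG28*, a scaffold protein, rose by 1.23. In the fatty acid and phospholipid list 11 of 26 fell and 8 rose, with a median of −0.21. It had 73.1% of its genes called, against 58.3% of all genes. *OLE1*, the fatty acid desaturase, read 0.58, 0.45 and 0.78 at 0 min and −1.21, −1.49 and −1.37 at 15 min. The acyl-CoA synthetases differed, *FAA1* at 1.72 being higher and *FAA4* at −1.74 and *FAA3* at −1.38 lower.

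The shares of transporter genes called lay near the 58.3% of all genes, 61.9% for hexose transport and sensing, 54.5% for nitrogen genes and 65.5% for drug and weak acid efflux. Among hexose transport and sensing genes 7 of 21 rose and 6 fell. *HXT5*, the carrier of slow growth and stress, read −1.79, −2.69 and −1.83 at 0 min and 0.57, 0.44 and 0.41 at 15 min, and *HXT2*, a carrier of low glucose, 0.88, 0.43 and 0.65 at 0 min and −1.56, −1.99 and −1.50 at 15 min. The former rose 5.95-fold, whereas *HXT2* responded by −2.34 and the carriers *HXT1* at −1.39 and *HXT3* at −1.22 and the repressor *MIG2* at −1.88 fell. *HXT6* and *HXT7* are near copies and did not pass (0.18 and 0.37), *HXT7* doing so with the culture block (adjusted p = 0.028). Of 33 nitrogen genes 15 rose and 3 fell, the permeases *AGP1* at 2.08, *AGP2* at 2.01 and *DIP5* at 1.66 being highest and *TAT1* at −1.68 and *GNP1* at −1.05 lowest. Among 29 genes of drug and weak acid efflux 15 rose and 4 fell. *TPO4*, a polyamine exporter, read −2.50, −2.35 and −2.12 at 0 min and 0.70, 0.65 and 1.14 at 15 min and rose 8.90-fold. The acid exporter *PDR12* read 0.56, 0.36 and 0.43 at 0 min and −0.80, −1.01 and −1.23 at 15 min and fell by 1.46 on the log2 scale, while *QDR3* at 2.01 and *AQR1* at 1.67, exporters of the same large superfamily as Tpo4, rose. Proton pump genes mostly did not pass the test. Of 21, 3 rose (2 without the array labelled 0 min, replicate 2) and 0 fell, none of them a subunit of the vacuolar ATPase, and *PMA1*, the plasma membrane pump, was at 0.087 (adjusted p = 0.71). Its activating kinase *PTK2* rose by 1.76.

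For metals and phosphate the lists were mixed. Called were 48.3% of iron, 57.9% of copper and zinc and 47.8% of phosphate genes, against 58.3% of all genes. Of 29 iron genes 12 rose and 2 fell (10 and 2 without the array labelled 0 min, replicate 2). The mRNA destabilising factor *TIS11*, which lowers iron using transcripts, read −2.08, −2.42 and −1.74 at 0 min and 0.65, 0.54 and 0.35 at 15 min and rose 6.04-fold, and *HMX1* at 1.49, *ISU1* at 1.47 and *MRS4* at 1.39 rose as well. The high affinity uptake pair did not follow, with the permease *FTR1* falling by 1.26 and the oxidase *FET3* at 0.093 (adjusted p = 0.71). In the copper and zinc list 6 of 19 rose, *COT1* at 1.51 most, and 5 fell, *ZRT1* at −0.85 lowest. Among 23 phosphate genes 7 rose and 4 fell with all 6 arrays, but 5 and 6 without the array labelled 0 min, replicate 2, and 8 and 7 with the culture block, so the balance turned in the first of these. It had *PHM8* at 2.80 and *PHO84* at 1.84 highest and *PHO90* at −1.89 and *PHO3* at −1.51 lowest. In the polyamine list 3 of 11 rose and 3 fell, with *FMS1*, the oxidase of spermine, at 1.74 and *SPE4*, its synthase, at −1.36.

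In the cell wall list 16 of 42 genes fell and 4 rose, with 47.6% called against 58.3% of all genes. The falls were largest for the wall remodelling enzymes *UTR2* at −1.75 and *SCW10* at −1.60 and the rises for the wall proteins *SPI1* at 2.73, *PIR3* at 2.45 and *PST1* at 2.20. Of 42 transcription factors of stress and growth 21 rose and 8 fell (19 and 7 without the array labelled 0 min, replicate 2). *CIN5*, a factor of salt tolerance, read −1.89, −2.03 and −2.00 at 0 min and 0.75, 0.91 and 1.28 at 15 min, and the repressors *XBP1* at 2.23 and *NRG1* at 2.03 rose too. *IFH1*, the coactivator of ribosomal protein genes, read 0.84, 0.76 and 0.51 at 0 min and −1.10, −0.90 and −1.66 at 15 min. It fell by 1.92 on the log2 scale and its partners did so by 0.96 (*RAP1*) and 0.66 (*FHL1*). Of the pair of general stress activators, *MSN2* rose by 0.72 and *MSN4* was at 0.23 (adjusted p = 0.27). Among 27 signalling genes 15 rose and 8 fell (15 and 6 without that array). The kinase *YAK1* at 2.67, the phosphatase *SDP1* at 2.23, the phosphodiesterase *PDE1* at 2.01 and the inhibitory subunit of protein kinase A *BCY1* at 1.16 rose. Its catalytic subunits moved apart, *TPK2* at 1.66 and *TPK3* at −1.45, and the growth kinase *SCH9* at −1.11 fell.

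The markers of cell type were read against the strain's label. Of 8 a-specific genes 6 fell, *MFA2* at −1.25, *STE2* at −0.95 and *MFA1* at −0.91 the most, and 1 rose, *ASG7* by 1.36. Of the 4 α-specific genes *STE3* rose by 1.05, *MF(ALPHA)1* rose by 1.47 with all arrays but did not pass without any 1 of the 0 min arrays (1.50, 1.41 and 1.50 without replicates 1, 2 and 3) or without 15 min replicate 1 (0.72), and the other 2 did not pass. Ratios to a pool do not show whether a gene is expressed, so the mating type itself could not be read from them. Pheromone response genes had 2 rises and 10 falls among 24 (5 and 11 with the culture block), with *PRM2* at 2.03 highest, *PRM7* lowest at −3.51 and the pathway's activator *STE12* falling by 1.13. Genes of meiosis and spores rose in 9 of 18 cases and fell in 0, with 7 and 1 without the array labelled 0 min, replicate 2. Among those were *SPR3* at 2.82, *SPS100* at 1.95, *HOP1* at 1.38 and *REC8* at 1.25. The pheromone list and the meiosis list each had 50% of genes called, against 58.3% of all genes.

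The response with the *S. cerevisiae* allele was then set against the mean response of the other 3 alleles in the same fit. The C.P. chimera shares the noncoding region of this allele and the P.C. chimera its coding region, so an effect of either region is diluted in that mean. The study compared the alleles by another test, an analysis of variance, and reported genes whose differences between alleles varied by time. No gene passed the limma test of the difference from the mean of the other alleles (0 of 4071, adjusted p of at least 0.999). An unadjusted p under 0.05 was found for 126 genes (3.10%), fewer than the 203.6 expected without any difference. Without the array labelled 0 min, replicate 2, 0 genes passed and 96 (2.36%) had an unadjusted p under 0.05. With array weights limma called 1 gene, *LOC1*, which binds *ASH1* mRNA and takes part in large subunit assembly. The median SE of the difference was 0.18. On simulated arrays the test found 20.5% of log2 differences of 0.5 and 85% of those of 1, so smaller differences may go uncalled. The simulated arrays had independent noise with no dye or culture effect. Deviations of the real arrays of this allele correlated between the times, from −0.55 to 0.71, so these rates may not hold for the real arrays. Some lists leaned one way, though no list was tested. Above 0 were 3 of 58 small subunit genes (median −0.27) and 2 of 58 large subunit genes (−0.29). Also above 0 were 38 of 42 cell wall genes (0.21) and 17 of 17 methionine and cysteine genes (0.17). Other lists leaned as well, with 3 of 57 mitochondrial ribosome genes (−0.21), 19 of 22 glycolytic genes (0.28) and 7 of 7 trehalose genes (0.18) above 0. The share of all genes above 0 was not counted, so no lean can be called particular to its list. For *SSU1* the difference was −0.41 ± 0.23 (SE), with responses of 1.64 here and 2.22, 2.08 and 1.86 with the *S. paradoxus*, C.P. and P.C. alleles. For *YHB1* it was −0.14 ± 0.14, with a mean of −0.69 over the other alleles. The largest positive differences by the moderated t statistic were those of *SOL1* (0.38), *TPO4* (0.72), *GLK1* (0.63), *SET4* (1.62), *CPR1* (0.94), *TEF1* (0.82), *PDC1* (0.91), *GSY1* (0.55), *BAG7* (0.74) and *DAN4* (0.51), in log2 units. *SET4*, whose product is related to histone methyltransferases, responded by 1.21 here and by −0.56, 0.015 and −0.69 with the others. Its values were −0.97, −0.44 and −0.34 at 0 min and 0.62, −0.072 and 1.31 at 15 min. The response of *SET4* with this allele (adjusted p = 0.025) did not pass without 0 min, replicate 1 (1.01), 15 min, replicate 1 (1.20) or 15 min, replicate 3 (0.86). *BAG7* responded by 4.07 here and by 3.34 on average elsewhere. The most negative were *LOC1* (−0.81), *NOP8* (−0.52), *HPT1* (−0.63), *BRE2* (−0.73), *BUD21* (−0.46), *RLP24* (−0.54), *RPC10* (−0.40), *UTP13* (−0.73), *YKE2* (−0.56) and *MRP10* (−0.66). Of these *LOC1*, *NOP8*, *BUD21*, *RLP24* and *UTP13* are ribosome assembly genes, and *HPT1* responded by −3.49 here and −2.87 elsewhere.

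**Figure D5:**
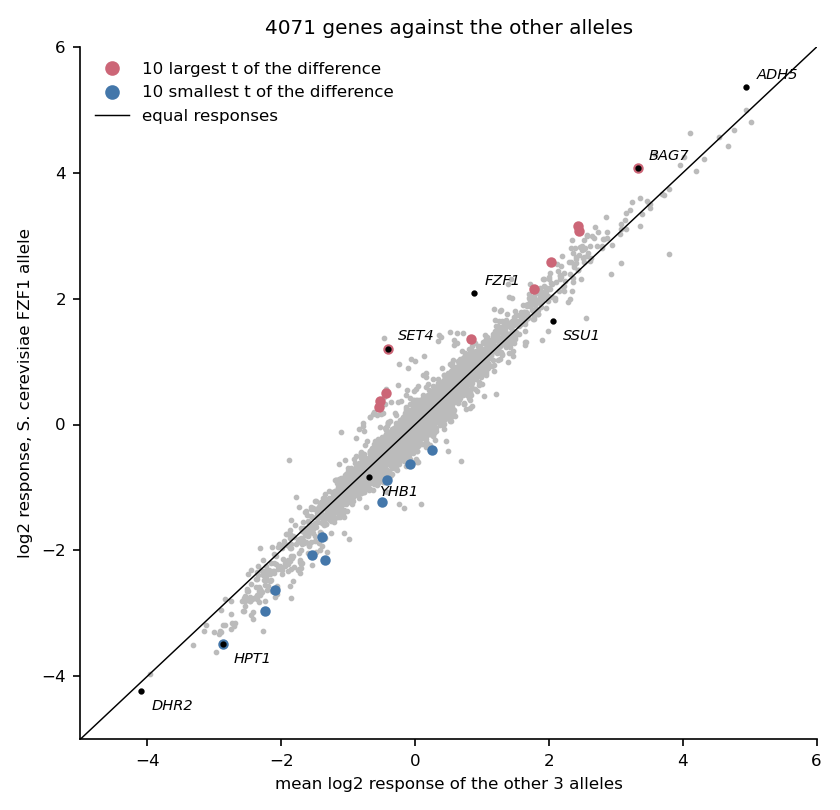
Log2 response with the *S. cerevisiae* allele (y axis) against the mean log2 response of the other 3 alleles (x axis) for 4071 genes, with the 10 largest and 10 smallest moderated t statistics of the difference in red and blue and the line of equal responses in black. No difference passed the test, and *FZF1*, whose response here includes the array labelled 0 min, replicate 2, lies off the line.

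Leaving out the array labelled *S. cerevisiae*, 0 min, replicate 2 moved the response of a gene by 0.059 in the median, and by more than 0.5 in 9 genes. The 6 that moved most were *FZF1* and *URA3*, given above, and *SPS2*, *ECM23*, *ZIP2* and *AZR1*. *SPS2*, a gene of spore formation, read −2.80, 1.22 and −0.049 at 0 min and −0.66, 1.16 and 0.78 at 15 min, and its response went from 0.97 to 1.85. *ECM23* went from −1.26 to −1.97, *ZIP2*, a meiotic gene, from 0.40 to 1.11 and the exporter *AZR1* from 1.09 to 0.48. None of these 4 passed the test with all 6 arrays. Among the leading genes the change was small, *ADH5* going from 5.36 to 5.34 and *DHR2* from −4.24 to −4.31.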

How the data were processed

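RNA was extracted from 3 cultures per allele at each time and compared with a pool of all RNA samples on 2-colour Agilent yeast V2 arrays. For this allele the sample was in Cy5 on replicate 3 and in Cy3 on replicates 1 and 2. The P.C. arrays at 15 min had replicate 2 in Cy5 instead of replicate 3. The study calls the replicates independent. The values deposited by the authors are log2 ratios of sample over pool, median normalised on each array, with dye-swapped arrays already turned. Arrays of the same group and opposite dye correlated positively (median 0.767 over 16 pairs). For this allele such pairs ran from 0.76 to 0.83, and pairs of equal dye were higher, at 0.89 (0 min) and 0.93 (15 min). The main fit has no dye term, and with a dye term 1356 genes rose and 1408 fell. The background correction and the filter behind empty features are not given in the sources used here, and signal intensities were not used, so that the number of arrays limits the precision.

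Features were joined to gene symbols by the position on the array, under which the features of a gene correlated at a median of 0.928 (−0.0085 by equal numbers). Of 15744 features, 8152 carry 1 symbol, for 4073 genes, and 7592 carry none. Values were averaged over the features of a gene and shifted so that the median gene of every array was 0. Group means of all 8 groups were fitted with limma 3.58.1 (R 4.3.3) for 4071 genes with at least 2 arrays in every group. The response was 15 min minus 0 min, and a second contrast subtracted the mean response of the other 3 alleles. P values were adjusted by Benjamini-Hochberg over all genes, with a limit of 0.05. The scripts were tested on simulated data. Tables and plots used Python 3.11.15, pandas 2.3.3, numpy 2.4.6 and matplotlib 3.10.9.

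The deviations of same-numbered arrays of the 2 times from their group means correlated (0.506, 0.367 and 0.708 for replicates 1, 2 and 3), so for this allele the numbers were taken to mark cultures, each of which the labels say was sampled at both times. Arrays of different number and the same dye correlated less (0.279 and 0.223). With the other alleles same-numbered arrays did not all correlate, at −0.0051, −0.244 and −0.462 for the P.C. chimera, where replicates 2 and 3 differ in dye between the times, −0.024, 0.410 and 0.376 for the C.P. chimera and 0.496, 0.484 and 0.762 for *S. paradoxus*. Number and dye cannot be told apart for replicate 3 of this allele. The fit with culture as a block, over all 24 arrays by number, is an alternative.

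The members and the 59 gene lists were chosen with earlier results of these data known, and no p is given for a list. Genes are named where they have the 15 largest or smallest responses, are *FZF1*, *SSU1*, *YHB1*, *URA3*, *ZRT1* or *HXK2*, are among the 6 largest responses of a list, have the 10 largest or smallest differences from the other alleles, or are the 6 that move most without the array labelled 0 min, replicate 2. Further members that define a pathway are named beside these, and were chosen after their values were seen. Alternatives were the 6 arrays alone, a culture block, a dye term, the values as deposited, quantile normalisation, the median of features, complete genes, no filter, a robust fit, array weights, Cy3 arrays alone, a limit of 0.01, the analysis of variance of the study's methods on single features (P under 0.01) and leaving out each of the 6 arrays.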

Additional observations from a re-analysis of the deposited data

How the results depend on the processing

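Across the alternatives that keep all arrays of the allele or its Cy3 arrays alone, the number of genes that rose ran from 977 (adjusted p under 0.01) to 1406 (array weights) and the number that fell from 970 to 1431, against 1180 and 1195. At least 2-fold increases ran from 407 to 454 and decreases from 412 to 460. Leaving out each of the 6 arrays in turn gave 1083 to 1120 rises, 1087 to 1143 falls, 427 to 450 increases and 409 to 470 decreases of at least 2-fold. With the values as deposited, without centring on the genes, 1071 rose and 1330 fell, and the median response over all genes was −0.060. The replicate block by culture called 1300 rises and 1341 falls, 2363 genes in the same direction as without it. With it the falls went from 0 to 1 in the acetaldehyde, thioredoxin, catalase, respiratory chain and meiosis lists. They went from 1 to 2 in glycolysis and the pentose phosphate pathway, and the rises from 1 to 2 among sulfur regulators and sulfur transport genes. Larger moves included falls from 10 to 15 among ribosomal proteins and rises from 10 to 14 for the ATP synthase. The difference from the other 3 alleles, with 0 genes called with all arrays and without any of the 6 arrays, had 1 with array weights, *LOC1* at −1.17 (adjusted p = 0.0096) against −0.81 (adjusted p = 0.999).

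Of 292 named genes past the test, 285 kept the call and direction under every alternative with a limit of 0.05. The other 7 were *CYS3*, *FZF1*, *MET3*, *MET8*, *MF(ALPHA)1*, *PEX11* and *SET4*, and no called gene turned its sign. Of 48 named genes not past the test, 22 passed under at least 1 alternative, 15 with the replicate block, 17 with a dye term, 12 with array weights and 12 on Cy3 arrays alone. Besides those given above, *CPR1* (0.50), *MRP10* (−0.40), *NDE1* (−0.47) and *TDH2* (0.61) passed with the block, at adjusted p of 0.030, 0.049, 0.032 and 0.018. Signs turned in 9 genes not past the test. By left-out array *CDC19* ran from −0.0061 to 0.32, *FET3* from −0.11 to 0.20, *GCN4* from −0.090 to 0.15, *GSH2* from −0.055 to 0.14, *PMA1* from −0.0056 to 0.19, *SPS2* from −0.16 to 1.85, *SUL1* from −0.74 to 0.67, *URA3* from −0.060 to 1.53 and *ZIP2* from −0.87 to 1.12. On Cy3 arrays alone *GSH2* was −0.033, *URA3* −0.12 and *ZIP2* −0.40. With values as deposited *GCN4* was −0.034 and *GSH2* −0.0024, with array weights *CDC19* was −0.0016, and *SUL1* was −0.21 with the median of features and −0.25 in the study's model on single features. The cause was not tested. List medians moved by at most 0.33. The 3 arrays per time and the lack of an untreated culture at 15 min limit what the responses can show.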
